A study of Mus musculus with 4 samples.

Results

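The Bmp7 locus outside its promoter was examined in RRBS data (reduced representation bisulfite sequencing), in which restriction fragments rich in CpGs are bisulfite-treated and sequenced, so that a methylated cytosine is read as C and an unmethylated one as T. The sites described are CpG cytosines, each strand taken by itself, with at least 20 reads in every tumor in chr2:172818012-172990321 of the mouse build mm10 (GRCm38). That interval holds Bmp7 (ENSMUSG00000008999, minus strand, chr2:172868012-172940321) and 50 kb on each side, and the promoter window chr2:172939821-172941321, from 1000 bp before to 500 bp after the transcription start site (TSS), was left out. The rule kept 192 of the 1081201 sites that qualified across the genome.

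DNA came from 4 leg tumors of lung adenocarcinoma cells (p53R172HΔg/+ KrasLA1/+), grown in syngeneic female 129Sv/Ev mice aged 12 to 16 weeks. The parental line 344SQP gave 2 of them and 344SQR gave the other 2, the line with acquired resistance to anti-PD1 that was derived from it. All 4 hosts received anti-PD1 at 10 mg/kg from day 4 for 4 doses, and tissue was taken 24 h after the last one, so the lines were compared under treatment only. Each line is a single cell line, the tumors hold host cells as well, and with 2 tumors a line the smallest p that an exact permutation test can give is 0.333.

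Bmp7 encodes bone morphogenetic protein 7, a secreted ligand of the TGF-β superfamily that binds paired receptor kinases and signals through the SMAD proteins SMAD1, SMAD5 and SMAD9. It is best known for its part in the development of kidney, eye and skeleton. In mammalian genomes, CpG-rich DNA around a TSS is usually unmethylated, whereas the bodies of genes and the DNA between genes usually carry methylated CpGs, and a methylated promoter is commonly a silent one.

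Outside the promoter the Bmp7 locus was mostly methylated in all 4 tumors. Over the 192 sites the mean methylation level was 73.0% and 71.1% in 344SQP replicates 1 and 2, and 67.8% and 61.4% in 344SQR replicates 1 and 2. Both 344SQR tumors lay below both 344SQP tumors, with means of 72.0% ± 1.34 (SD, n = 2) for 344SQP and 64.6% ± 4.54 (SD, n = 2) for 344SQR. The difference of −7.43 percentage points (points below; 344SQR minus 344SQP throughout) gave p = 0.333 in the two-sided exact permutation test, the smallest value it allows. Of the 192 sites, 23 lie in the promoter window of the neighbouring gene Spo11, and the 169 sites outside the promoter of any gene differed by −8.22 points (−4.63 points without 344SQR replicate 2). The 476162 qualified sites outside any promoter in the rest of the genome averaged 58.9% and 60.2% in 344SQP and 55.6% and 52.6% in 344SQR. They differed by −5.40 points (−3.90 points without 344SQR replicate 2). The promoter window itself, given for comparison, differed by −24.4 points over its 61 sites (−15.5 points without 344SQP replicate 2). A share of methylated reads in a tumor is an average over its cells, so a different mix of cells and different methylation within cells cannot be told apart.

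The parts of the locus were not alike. The 62 intron sites averaged 66.1% and 64.2% in the 344SQP tumors and 58.6% and 48.0% in the 344SQR tumors, a difference of −11.8 points (two-sided exact permutation p = 0.333). The 55 sites downstream of Bmp7 averaged 76.4% and 74.9% in 344SQP and 70.5% and 63.0% in 344SQR, which differ by −8.91 points (exact permutation p = 0.333). In both of these parts the lines did not overlap, and 344SQR replicate 2 was the lowest tumor. In introns the separation depended on 14 sites within 1500 bp of the TSS. The other 48 intron sites averaged 80.8% and 72.8% in 344SQP and 74.1% and 60.5% in 344SQR, so that the lines overlapped (−9.52 points, exact permutation p = 0.667). Their difference was −5.49 points without 344SQP replicate 1, −16.3 points without 344SQR replicate 1 and −2.72 points without 344SQR replicate 2. The 57 sites upstream averaged 76.7% and 73.3% in 344SQP and 73.7% and 69.8% in 344SQR (−3.24 points, exact permutation p = 0.667). The 18 exon sites averaged 74.8% and 76.3% in 344SQP and 72.7% and 76.0% in 344SQR (−1.15 points, exact permutation p = 0.667). Upstream and in exons, the tumors of the lines overlapped. Without 344SQR replicate 2 the difference shrank to −6.52 points in introns, −5.16 points downstream and −4.23 points over the whole locus. Upstream it was −1.56 points without 344SQP replicate 1, −4.92 points without 344SQP replicate 2, −5.20 points without 344SQR replicate 1 and −1.28 points without 344SQR replicate 2. In exons these values were −1.92, −0.375, 0.487 and −2.78 points in the same order.

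Coverage of the locus was sparse. The 192 sites are 3.45% of the 5562 CpG cytosines that the reference holds in the interval outside the promoter, and they fall on 168 CpGs. They lie in 43 runs, a run being a group of sites with gaps of at most 200 bp, and 26 runs with 3 or more sites hold 166 of them. The widest stretch without a qualified site, from 172917219 to 172939081, spans 21862 bp of intron 1 with 374 reference CpGs, so most of that intron held no qualified site. Median coverage of the 192 sites was 81 and 88 reads in the 344SQP tumors and 115.5 and 129.5 reads in the 344SQR tumors, within libraries of 116794455, 138331886, 160548303 and 174689402 summed CpG calls in the same order. At 20 reads, 1 read is worth 5 points, and values of single sites are accordingly coarse.

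The difference nearest to the promoter on the gene side lay at the 5′ end of intron 1, inside the CpG-dense DNA around the TSS. A run of 9 sites at chr2:172939372-172939447, from 874 bp into the gene, was methylated at 11.6% and 33.8% in the 344SQP tumors and at 4.77% and 4.20% in the 344SQR tumors. The next run inward, 5 sites at chr2:172939081-172939124, was methylated at 22.6% and 36.3% in 344SQP and at 6.90% and 7.63% in 344SQR. Both 344SQR tumors were therefore low and close to each other, while the 344SQP tumors were higher and apart. Over the 14 sites of the pair of runs the means were 25.1% ± 13.5 (SD, n = 2) and 5.47% ± 0.0745 (SD, n = 2), a difference of −19.6 points, and the lines did not overlap at 13 of the 14 sites, where 31.4% of other sites outside promoters were lower without overlap. All 14 were called lower in 344SQR by the per-site likelihood ratio test described further on, which called 29.7% of those other sites lower. Without 344SQP replicate 2 the difference over the 14 sites halved to −10.05 points, that of the outer run fell to −7.11 points, and 9 of the 14 were called. In edgeR's quasi-likelihood test of the 500-bp window that holds them, the odds of methylation in 344SQR over those in 344SQP gave a log2 ratio of −2.50 ± 0.61 (SE), with an adjusted p of 0.184 (Benjamini-Hochberg over 83678 windows), which went from 0.00270 without 344SQP replicate 1 to 0.399 without 344SQP replicate 2.

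Between these runs and the promoter window lie 4 sites of exon 1, chr2:172939779-172939805, which did not share that pattern. They were methylated at 5.56% and 13.1% in the 344SQP tumors and at 0.820% and 18.8% in the 344SQR tumors. The highest and the lowest tumor were both 344SQR, the difference was 0.483 points, and it moved between −8.53 and 9.49 points as each tumor was left out. The 4 promoter sites nearest to this edge, chr2:172939904-172939931, stood at 6.34% and 31.8% in 344SQP and at 2.81% and 7.70% in 344SQR. They differed by −13.8 points, and the lines overlapped there as well. The reference sequences of these runs with 10 bp on each side, on the minus strand (the strand of Bmp7) with CpGs in capitals, follow. In the exon 1 run the lines overlapped, with a direction that changed as tumors were left out. In the outer and inner intron 1 runs they did not overlap.
Exon 1 run, chr2:172939769-172939815: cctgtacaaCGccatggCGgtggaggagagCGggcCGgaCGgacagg
Outer intron 1 run, chr2:172939362-172939457: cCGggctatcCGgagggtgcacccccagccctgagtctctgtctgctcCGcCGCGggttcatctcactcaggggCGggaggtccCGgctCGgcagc
Inner intron 1 run, chr2:172939071-172939134: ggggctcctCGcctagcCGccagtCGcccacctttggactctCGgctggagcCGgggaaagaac
The exon 1 run is coding sequence of the first exon (chr2:172939655-172940321), and both other runs are intronic.

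Where the difference ends was read through 500-bp windows with at least 3 sites, going outward from each edge of the promoter window for as long as both 344SQR tumors lay below both 344SQP tumors by −10 points or more. By that rule no window beyond the promoter edge was kept on either side. The edge is where the rule starts, so it is not a measured end. On the gene side the first window held the 4 exon 1 sites and stopped the series at once, with the window of the intron 1 runs beyond it. With 1000-bp windows, or with exon 1 left out (an alternative chosen after seeing the data), the difference ran on to 172939081, 1240 bp into the gene. The next window inward, chr2:172917080-172917219 in intron 1, was methylated at 75% and 72.6% in 344SQP and at 69.1% and 72.4% in 344SQR. These means include the site 172917199, at 3.13% and 8.70% in 344SQP and 0.0% and 0.0% in 344SQR. Its neighbours within 100 bp averaged 93.7%, so the means stand below the level of those neighbours. Over the window the difference was −3.03 points. Its direction was not stable, as it turned to 1.48 points when the reads of the 4 sites were pooled, and edgeR gave a log2 ratio of 0.15 ± 0.69 (SE). Methylation in all tumors thus went from low to high somewhere in the 21862 bp without a qualified site, and the end of the difference cannot be placed within that stretch.

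On the upstream side the outermost promoter sites, 4 at chr2:172940746-172940869, still differed by −12.8 points, with 16.3% and 19.0% in 344SQP and 7.04% and 2.83% in 344SQR. No site qualified over the next 1173 bp. The first site beyond, 172942042 on the plus strand, was methylated at 85.7% and 45.5% in the 344SQP tumors and at 51.8% and 27.4% in the 344SQR tumors. With 55 to 85 reads a tumor it was called lower (−26.0 points, adjusted p = 0.000345), but the lines overlapped, and the call was lost without 344SQP replicate 1 (−5.87 points, adjusted p = 0.751) and without 344SQR replicate 2 (−13.8 points, adjusted p = 0.189). The first upstream window with 3 sites, chr2:172945402-172945458, went the other way, with 76.1% and 65.6% in 344SQP and 89.97% and 76.9% in 344SQR. Its 6 sites differed by 12.6 points, the lines did not overlap, and edgeR gave an adjusted p of 0.420. The difference was 7.33 points without 344SQP replicate 2, 6.04 points without 344SQR replicate 1 and 19.1 points without 344SQR replicate 2. With a single site between 172940869 and 172945402, the end of the difference cannot be placed within that stretch. The run at chr2:172945402-172945458, 5081 bp before the TSS, had 20 to 139 reads a site. It is the only one of the 26 runs with 3 or more sites in which both 344SQR tumors were above both 344SQP tumors. In the genome 5.19% of such runs outside promoters were. Its reference sequence on the minus strand, CpGs in capitals, follows.
Upstream run higher in 344SQR, chr2:172945392-172945468: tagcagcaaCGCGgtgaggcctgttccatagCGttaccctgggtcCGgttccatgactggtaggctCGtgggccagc

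Away from the TSS, differences came in separate short stretches with like levels between them. Of the 26 runs with 3 or more sites, both 344SQR tumors lay below both 344SQP tumors in 17, above them in 1 and overlapped with them in 8. In the genome 44.9% of such runs were lower and 5.78% higher without overlap, and 48.6% and 5.19% of those outside promoters. One of the 17 lies in the promoter window of Spo11. Of the 26 runs, 11 were lower without overlap with a difference of −10 points or more, where 27.1% of runs outside promoters were. In 9 of the 26 the difference was under 5 points in size. The runs named here were chosen after their values were seen. In intron 2 the 3 sites at chr2:172904687-172904791 had the largest difference of the 26 runs, with 73.2% and 61.3% in 344SQP and 46.3% and 15.0% in 344SQR (−36.6 points). The 344SQR tumors differed widely from each other, and the difference was −21.0 points without 344SQR replicate 2.

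Also in intron 2, a run of 16 sites over 546 bp at chr2:172896510-172897055 changed within itself. Its 12 sites in the 500-bp window up to 172897000 averaged 86.7% and 77.1% in 344SQP and 67.7% and 48.6% in 344SQR, a difference of −23.7 points (−14.2 points without 344SQR replicate 2). These 12 sites were not alike. The sites 172896510, 172896532, 172896543 and 172896559 were lower without overlap by 40.7 to 56.2 points and stayed called as each tumor was left out. Between them and up to 172896741, 172896708 and 172896723 were not called (adjusted p = 0.0750 and 0.0534). In the same stretch 172896554 and 172896741 were called with overlap between the lines, and both calls were lost without 344SQR replicate 2 (adjusted p = 0.415 and 0.442), the second also without 344SQP replicate 1 (adjusted p = 0.545). Further on, 172896881 and 172896882 differed by −1.68 and −1.78 points, and 172896957 was called higher in 344SQR with overlap between the lines (19.5 points, adjusted p = 5.39e-07). That call was lost without 344SQP replicate 2 (8.76 points, adjusted p = 0.233) and without 344SQR replicate 1 (8.01 points, adjusted p = 0.110). The last of the 12, 172896995, was lower again (−13.8 points, adjusted p = 3.06e-05), a call lost without 344SQR replicate 2 (−2.04 points, adjusted p = 0.806). The 4 sites of the next window, 172897008 to 172897055, averaged 92.3% and 89.2% in 344SQP and 94.2% and 87.2% in 344SQR, a difference of −0.0536 points that moved between −3.58 and 3.48 points as each tumor was left out. Toward the TSS, the 6 sites of intron 2 at chr2:172911644-172911760 stood at 72.1% and 63.2% in 344SQP and at 74.7% and 62.0% in 344SQR, where the tumors numbered 1 were high and those numbered 2 were low in both lines, and the difference of 0.696 points moved between −5.69 and 7.09 points as each tumor was left out.

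Exon 2 was almost fully methylated in every tumor. Its 13 sites averaged 96.2% and 95.8% in 344SQP and 94.4% and 94.7% in 344SQR, a difference of −1.44 points on 61 to 209 reads a site. One exon 2 site stood apart, 172916586 on the minus strand, with 98.5% and 95.7% in 344SQP and 87.6% and 74.8% in 344SQR (−15.9 points, adjusted p = 9.63e-09 in the likelihood ratio test, and −9.53 points without 344SQR replicate 2). The lines did not overlap over the 13 sites, but over the 12 others they did (−0.239 points), with 344SQR replicate 2 the highest tumor at 96.3%. Over these 12 sites the difference moved between −0.913 and 0.435 points as each tumor was left out. The site with the largest difference in the other direction in an exon, 172916533, read 91.3% and 88.3% in 344SQP and 93.4% and 97.5% in 344SQR (5.64 points, adjusted p = 0.0217), and its call was lost without 344SQP replicate 2 (adjusted p = 0.268) and without 344SQR replicate 2 (adjusted p = 0.395). The sequences of the exon 2 run and of the intron 2 run at 172904687, minus strand with CpGs in capitals, set a stretch highly methylated in all tumors beside the stretch that differed most.
Exon 2 run with the end of intron 1, chr2:172916523-172916715: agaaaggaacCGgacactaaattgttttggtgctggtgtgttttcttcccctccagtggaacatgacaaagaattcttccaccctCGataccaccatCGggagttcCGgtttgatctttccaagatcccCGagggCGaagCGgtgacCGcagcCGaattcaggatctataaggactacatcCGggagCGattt
Intron 2 run, chr2:172904677-172904801: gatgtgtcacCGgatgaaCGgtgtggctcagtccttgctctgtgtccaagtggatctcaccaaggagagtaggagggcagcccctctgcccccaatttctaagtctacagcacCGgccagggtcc
The exon 2 run holds 11 CpGs in 193 bp and the intron 2 run 3 CpGs in 125 bp as printed.

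Toward the 3′ end of Bmp7 few sites qualified. The 12 sites of intron 3 averaged 80.2% and 68.6% in 344SQP and 79.6% and 66.1% in 344SQR, a difference of −1.50 points beside SDs within the lines of 8.18 and 9.55 points, and it moved between −8.25 and 5.25 points as each tumor was left out. The 3 sites of intron 4 differed by 2.20 points, and the single site of exon 7, the last exon, by −3.81 points, and both turned as single tumors were left out. Exons 3 to 6 and introns 5 and 6 held no qualified site.

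Downstream of Bmp7, where the small gene Gm22773 (chr2:172864264-172864341) is the only other annotated gene and holds no qualified site, both 344SQR tumors lay below both 344SQP tumors in 7 of 10 runs with 3 or more sites (48.6% of such runs outside promoters). The farthest run, 4 sites at chr2:172819664-172819851 and 120470 bp from the TSS, was methylated at 86.4% and 87.9% in 344SQP and at 71.1% and 53.7% in 344SQR. The 7 sites at chr2:172851435-172851678 stood at 60.8% and 69.7% in 344SQP and at 44.2% and 45.3% in 344SQR. In these runs the lines differed by −24.8 points (−16.1 points without 344SQR replicate 2) and −20.6 points, where the intron 1 runs beside the promoter differed by −22.2 and −18.2 points. Between them, 8 sites at chr2:172843595-172843661 were methylated at 95.3%, 94.0%, 95.5% and 94.9% in 344SQP replicates 1 and 2 and 344SQR replicates 1 and 2. Stretches that differed and stretches that were alike thus alternated out to the border of the interval, and no end of the differences was reached on the downstream side.

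Upstream, the 31 intergenic sites averaged 68.0% and 61.4% in 344SQP and 63.3% and 57.9% in 344SQR, a difference of −4.10 points with overlap between the lines, which moved between −7.44 and −0.763 points as each tumor was left out. The largest difference of a run with 3 or more sites on this side was at chr2:172963201-172963384, where 3 sites had 79.6% and 84.5% in 344SQP and 60.3% and 63.7% in 344SQR (−20.1 points, and −22.5 to −17.7 points as each tumor was left out). The neighbouring gene Spo11 (ENSMUSG00000005883, plus strand, from its TSS at 172979842 past the border of the interval), whose product makes the DNA breaks of meiotic recombination, was methylated in all tumors, and 23 of its 26 sites lie within 500 bp after that TSS, in its promoter window. Its 5 exon sites averaged 95.8% and 97.1% in 344SQP and 95.1% and 92.5% in 344SQR. Its 21 intron sites averaged 85.0% and 85.4% in 344SQP and 84.0% and 82.1% in 344SQR, so that at Spo11 the lines differed by −2.64 and −2.11 points (−1.37 and −1.13 points without 344SQR replicate 2).

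Read by single sites, differences toward lower methylation in 344SQR were more frequent. The likelihood ratio test, a logistic model of the reads of each site as in methylKit, called 69 of the 192 sites lower and 17 higher at an adjusted p under 0.05. That is 35.9% and 8.85% of the sites, where the same test called 18.4% of all qualified sites lower and 6.04% higher, and 29.7% lower and 6.97% higher among the sites outside promoters in the rest of the genome. Without the 23 sites in the Spo11 promoter, 37.9% of the locus was called lower and 8.88% higher. Both 344SQR tumors lay below both 344SQP tumors at 77 sites and above them at 23, where all qualified sites gave 21.2% and 8.27%, and the sites outside promoters in the rest of the genome 31.4% and 8.78%. By part, 27 of 62 intron sites, 23 of 55 downstream sites, 18 of 57 upstream sites and 1 of 18 exon sites were called lower, and 4, 3, 9 and 1 were called higher. As each tumor was left out, these counts ran from 21 to 33, 12 to 26, 12 to 18 and 1 to 3 for lower sites, with the first 3 minima without 344SQR replicate 2, and from 1 to 7, 2 to 5, 5 to 7 and 0 to 2 for higher sites. This test does not count the spread between tumors of a line. An F test that does called 0 sites in the locus and in the genome, with 8 lower and 0 higher at an unadjusted p under 0.05 (1.81% and 0.25% of all sites), and without 344SQP replicate 2 the likelihood ratio test called 8 sites higher in place of 17.

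The sites with the largest differences among those whose lines did not overlap were spread over the locus. In introns the largest fall was at 172896532 on the plus strand in intron 2, methylated at 92.1% and 85.5% in 344SQP and at 48.4% and 16.8% in 344SQR on 76 to 101 reads (95% Wilson intervals 83.8 to 96.3, 76.4 to 91.5, 38.4 to 58.5 and 10.8 to 25.3%). The largest rise in an intron was at 172888867 in intron 3, with 36.4% and 36.9% in 344SQP and 66.7% and 53.4% in 344SQR. Both were called, with adjusted p = 1.35e-14, the smallest value the test returns here, and adjusted p = 2.18e-08. Downstream, 172819851 was at 83.0% and 90.0% in 344SQP and at 52.1% and 30.6% in 344SQR, and 172829594 at 80.5% and 61.0% against 100.0% and 98.0% (28.3 points, and 18.5 points without 344SQP replicate 2). Upstream, 172963201 was at 64.1% and 82.5% in 344SQP and at 43.6% and 35.0% in 344SQR, and 172958424 at 76.0% and 62.3% against 91.5% and 96.5%. These 4 sites passed the likelihood ratio test as well, with adjusted p of 4.75e-12, 1.60e-07, 2.13e-06 and 1.75e-13 in that order. On the gene side the first site outside the promoter, 172939805 in exon 1, was at 4.44% and 3.39% in 344SQP and at 1.64% and 11.8% in 344SQR and was not called (adjusted p = 0.451). Wilson intervals, which cover counting error only, were 4.71 to 28.6 points wide at the 10 sites named by rule.

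In the main setting, no window of the locus passed the tests that count the spread between tumors. edgeR called 0 of the 26 windows of 500 bp, while it called 101 of 83678 windows in the genome (0.121%), and limma called 0 in both. At an unadjusted p under 0.05, 5 of the 26 windows and 12466 in the genome passed in edgeR, and 5 and 13388 in limma. Both 344SQR tumors lay below both 344SQP tumors in 16 of the 26 windows and above them in 1, and in the genome this was so in 41.1% and 6.68% of windows. The median difference was −6.71 points over the windows of the locus and −1.83 points over all windows. The log2 ratio of the window with the intron 1 runs went from −3.35 without 344SQP replicate 1 to −1.64 without 344SQP replicate 2. For the intron 2 window at 172904687 it went from −3.66 without 344SQR replicate 1 to −1.38 without 344SQR replicate 2. In these fits the lone tumor of a line was taken to vary like the others. With all 4 tumors and the replicate number as a block, edgeR called 5 of the 26 windows, all lower, and 18.3% of windows in the genome.

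Averaged over the 80 sites of its body outside the promoter, Bmp7 was methylated at 68.0% and 66.9% in 344SQP and at 61.8% and 54.3% in 344SQR. On summed reads the log2 ratio of odds was −0.45 ± 0.29 (SE) in edgeR, with an adjusted p of 0.466 over 9724 gene bodies with at least 10 sites. edgeR called 0.0% of the gene bodies, with 1597 at an unadjusted p under 0.05, and limma called 0, with 1575. A lower level without overlap, as in Bmp7, was found in 51.8% of all gene bodies, and a higher one in 3.73%. The mean difference of −9.40 points for Bmp7 stands beside a median of −2.44 points, and 1572 gene bodies (16.2%) had a lower value. Without 344SQR replicate 2 the mean difference for Bmp7 was −5.68 points. The log2 ratio for Bmp7 was −0.13 without 344SQR replicate 2 and −0.78 without 344SQR replicate 1.

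Other genes of the BMP pathway were taken from a list of 30 genes, of which 19 had at least 10 sites in their bodies outside promoters. Of these, 15 had a lower and 4 a higher mean in 344SQR. Without 344SQP replicate 1 this split was 17 and 2, and without 344SQR replicate 2 it was 16 and 3. It was 13 and 6 without 344SQP replicate 2 and also without 344SQR replicate 1. Of the 19, 9 were lower without overlap and 0 were higher without overlap, where all gene bodies gave 51.8% and 3.73%. The median difference was −0.977 points (−2.23 points without 344SQP replicate 1). edgeR called 0 of the 19, also as each tumor was left out, and 3 passed an unadjusted p under 0.05, as did 16.4% of all gene bodies. Among the ligands, the body of Bmp2 stood at 14.1% and 17.9% in 344SQP and at 4.19% and 2.62% in 344SQR (−12.6 points, edgeR adjusted p = 0.288). Among the antagonists, the body of Fst, whose product follistatin binds activins and BMPs, stood at 13.7% and 22.4% in 344SQP and at 7.64% and 7.36% in 344SQR (−10.5 points, edgeR adjusted p = 0.288, and −6.17 points without 344SQP replicate 2). The body of Chrd, which encodes the BMP-binding protein chordin, stood at 18.8% and 29.0% in 344SQP and at 28.3% and 44.0% in 344SQR (12.2 points, edgeR adjusted p = 0.417), with overlap. For Chrd the difference was 7.15 points without 344SQP replicate 1, 20.1 points without 344SQR replicate 1 and 4.40 points without 344SQR replicate 2. Smad9, a transducer of BMP signals, stood at 85.0% and 83.7% in 344SQP and at 79.6% and 72.4% in 344SQR (−8.35 points, edgeR adjusted p = 0.294, and −4.80 points without 344SQR replicate 2). The bodies of Bmp2 and Fst were thus sparsely methylated in all tumors, and those of Smad9 and Bmp7 mostly methylated.

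Markers of cell types were read as promoter methylation beside these values. Promoters of epithelial genes were nearly unmethylated in all tumors, with a mean of 5.48% and 5.39% in 344SQP and 4.74% and 5.04% in 344SQR over 3 of the 4 genes listed (Epcam, Cdh1 and Krt18). For genes of fibroblasts and endothelium, 5 of 5 had sites, with means of 40.7% and 47.9% in 344SQP and 33.4% and 51.4% in 344SQR. Each gene counted alike, though Col1a1 and Pecam1 had 1 site each, Pdgfrb 3, Pdgfra 21 and Kdr 23. The Pecam1 site stood at 63.3% and 72.9% in 344SQP and at 34.1% and 75.0% in 344SQR. Kdr stood at 8.48% and 13.2% in 344SQP and at 11.4% and 26.8% in 344SQR, and Pdgfra at 14.3% and 27.1% against 16.0% and 35.0%. Of the leukocyte genes, the 2 sites of Cd3e averaged 81.1% and 75.8% in 344SQP and 81.5% and 46.6% in 344SQR, and the site of Spi1 stood at 43.8% and 88.5% in 344SQP and at 36.2% and 83.1% in 344SQR. No mean of this set is given. The hosts were female, and 0.0406% and 0.0254% of CpG calls in 344SQP and 0.0555% and 0.0178% in 344SQR lay on chromosome Y. The part of cell composition in the differences at the Bmp7 locus was not tested.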

How the data were processed

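The authors trimmed reads with Trim Galore 0.4.1 and cutadapt 1.9.1, mapped them to mm10 with Bismark and Bowtie 1.1.2, and deposited for each tumor and CpG strand the coverage as a count of reads. The authors also deposited the methylated share in percent, rounded to 1 decimal. Methylated reads were recomputed as the product of both, rounded to whole reads.

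Sites needed 20 reads or more in each of the 4 tumors, and the value of a part, run or window is the mean of its sites in a tumor. The test of a site was the likelihood ratio in a logistic model without overdispersion, with p not under 2.2e-16. Windows of 500 bp with at least 3 sites and gene bodies with at least 10 sites were tested on summed methylated and unmethylated reads by edgeR 4.0.16 with an effect for each tumor (SE taken as the log2 ratio over the root of F), and by limma 3.58.1 after 1 read was added to each. All p-values were adjusted by the Benjamini-Hochberg method over the genome. Genes and promoters followed GENCODE vM21 basic, and sequences came from the RefSeq copy of GRCm38. On simulated reads with no spread between tumors, edgeR called 200 of 200 windows changed by 25 points and 8 unchanged ones among 20925 windows, and limma called 158 and 2. The software was R 4.3.3 and Python 3.11.15 with pandas 2.3.3, numba 0.67.0, scipy 1.17.1 and numpy 2.4.6.

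The members and lists were chosen with earlier results of these data known. The genes named are Bmp7, genes with an exon in the interval, and pathway genes whose bodies edgeR called with or without a block for the replicate number, at most 3 in each direction. The sites named are those with the largest difference in each direction and part among sites whose lines did not overlap, and the first outside each promoter edge. The windows named are those next to the promoter up to the end of the difference and the next one beyond, and any that edgeR called. Alternatives were the coverage minimum (10 and 50 reads), merged strands, pooled reads, equal depth, other tests, window sizes and thresholds, the block, and each tumor left out. The mean of a set of marker genes is not reported here.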

Additional observations from a re-analysis of the deposited data

How the results depend on the processing

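The differences of the parts and of the whole locus moved by less than the spread between tumors with a minimum of 10 or 50 reads, merged strands, pooled reads, equal depth and, added after seeing the data, sites near the TSS or in the Spo11 promoter left out. The exon difference fell from −1.15 to −0.0432 points with pooled reads, and the lines overlapped in introns without the sites near the TSS. In exons, by contrast, the lines did not overlap without the sites near the TSS. There the means were 94.5% and 94.3% in 344SQP and 93.3% and 92.3% in 344SQR (−1.61 points). The log2 ratio of the Bmp7 gene body was −0.45 with a minimum of 10 reads, at least 3 sites and limma, as in the main setting. It was −0.47 with a minimum of 50 reads and ran from −0.78 to −0.13 as each tumor was left out. The gene body was not called with either minimum of reads, at least 3 sites or limma. As edgeR and limma called 0 of 9724 gene bodies, this is no measure of stability. As each tumor was left out, the difference over the whole locus ran from −10.6 points (without 344SQR replicate 1) to −4.23 points (without 344SQR replicate 2). The F test called 0 sites lower and 0 higher. At an unadjusted p under 0.05, chosen after seeing the data, it gave 8 and 0, where all qualified sites gave 1.81% and 0.25%. An adjusted p under 0.01 with at least 25 points left 26 lower and 1 higher. That is 13.5% and 0.521% of the locus, where all qualified sites gave 4.29% and 0.822%. Taken singly, both added after seeing the data, the stricter p left 62 and 11 (32.3% and 5.73%, against 14.0% and 4.06% of all sites). The 25 points left 26 and 2 (13.5% and 1.04%, against 4.34% and 0.835% of all sites). On the gene side the series of windows reached 172939081 with 1000-bp windows and with exon 1 left out. The cause of these changes was not tested. For the 10 sites named by rule the call was lost in 13 of 70 settings, each of them the F test or a tumor left out. With reads pooled (chosen after seeing the data), 3 of 26 runs with 3 or more sites moved by more than the spread between tumors. As each tumor was left out, 19 of the 26 runs moved by over 1.5 times or turned in at least 1 setting, and 6 of these turned. With 2 tumors a line, leaving 1 out cannot move a difference past that spread, so it is no measure of stability there.

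Tumors of both lines carry the numbers 1 and 2. The labels do not say whether tumors of the same number shared a litter, cage or day, so a pairing is neither known nor excluded. The difference between tumors 1 and 2 had r = 0.660 between the lines over 83699 windows, and r = 0.500 over the windows of the locus. With the number as a block, edgeR called 5 of the 26 windows of the locus, all lower, and 15313 windows (18.3%) in the genome, and the adjusted p of the Bmp7 gene body was 0.0603. It called 2455 gene bodies (25.2%), with 3 lower and 1 higher among the 19 of the BMP pathway. With the block, a Mantel-Haenszel test called 70 sites lower and 17 higher. That is 36.5% and 8.85% of the locus, where the test called 17.6% and 5.77% of all qualified sites. Depth limits single sites, where 20 reads give steps of 5 points, and 3.45% of the CpG cytosines of the locus qualified.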

Other observations

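The difference at the Bmp7 locus was described by how many CpGs lie around a site. The 31 sites with 1 to 3 reference CpGs within 100 bp, their own included, differed by −11.8 points, the 53 sites with 4 to 6 by −9.37 points and the 108 sites with 7 or more by −5.24 points. Without 344SQR replicate 2 these values were −5.61, −5.74 and −3.09 points, so the order of the first 2 groups depended on that tumor. In the last group the means were 72.0% and 72.1% in 344SQP and 69.0% and 64.7% in 344SQR.

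At 4 sites the level was at most 10% in all tumors beside methylated neighbours within 100 bp. At 172980113 and 172980117 in an intron of Spo11 the highest of the 4 tumors was at 7.62% and 4.76%, while the neighbours averaged 89.4% and 89.2%. At 172917199 in intron 1 of Bmp7 the highest tumor was at 8.70% and the neighbours averaged 93.7%, and at 172948056 upstream these values were 1.89% and 63.3%. All 4 sites were read on the minus strand, and the cytosine of the same CpG on the plus strand was not listed in all tumors. CpGs were taken from the reference genome, and whether these 4 are CpGs in the mouse strain used was not tested. Their low levels therefore cannot be taken as unmethylated CpGs.

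344SQR replicate 2 had the lowest level of the 4 tumors at 82 of the 192 sites, 344SQR replicate 1 at 43, and 344SQP replicates 1 and 2 at 28 and 35. It was also the lowest tumor in 15 of the 26 runs with 3 or more sites. Levels of 20% or less were found at 20 and 12 sites in the 344SQP tumors and at 26 and 35 sites in the 344SQR tumors.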
